A study of Homo sapiens with 6 samples.

Results

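Complex I is the first and largest enzyme of the mitochondrial respiratory chain, and the transcripts of its nuclear genes are described here in 95D cells, a human lung cancer line, deprived of glucose or of glutamine. The genes were chosen by symbol, as listed NDUF subunits, with no cutoff on their measured values. Earlier results of these data were known when they were chosen. Among the 59609 gene names of the deposited tables, 36 were found. The wild-type cells were grown in DMEM with 10% fetal bovine serum, seeded for 24 hours in complete medium and then kept for 48 hours in control DMEM, in DMEM without glucose or in DMEM without glutamine. The media without glucose or glutamine held 10% dialyzed serum. Dialysis is not stated for the control medium, so lack of the nutrient and the change of serum cannot be told apart in comparisons with the control. Control medium and glucose deprivation had 2 libraries each. Glutamine deprivation had 1 that could be tied to its sample, and the labels do not say whether replicates are separate cultures. The p-values therefore reflect no more than the spread among these libraries, which may be technical.

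Complex I takes electrons from NADH at the tip of an arm that stands in the mitochondrial matrix, passes them along a chain of iron-sulfur clusters to ubiquinone where that arm meets the membrane, and uses the energy to pump protons through its membrane arm. Core subunits carry the cofactors and the pumps, while accessory subunits hold the complex together and are needed for its assembly. Most subunits are made from nuclear genes and imported, and the hydrophobic pump subunits are made from mitochondrial DNA, so that a complete enzyme draws on both genomes. NADH for it comes from the oxidation of both glucose and glutamine carbon.

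The libraries held 34520000 to 48920000 reads, inferred from the whole-read steps of low values, and members rested on 490 to 8832 inferred reads in a library. The numbers for members use the merged length of all annotated exons, so they are approximate and may be too high. Levels are FPKM, read counts divided by transcript length and library size, which allow levels of different genes to be compared per length, after division by a scaling factor for each library. Of the lists of cell type markers, the epithelial one had 2 of 6 genes at 1 FPKM or more (KRT8 and KRT18), the lung list 1 of 5 (NKX2-1), the mesenchymal list 3 of 6 and the blood and endothelial list 0 of 8. EPCAM and CDH1, which define epithelium, stayed under 1 FPKM, and the surfactant gene SFTPB and the club cell gene SCGB1A1 were listed at 0 in all 5 libraries. The summed mesenchymal markers, of which VIM made up most, were 85.9 to 87.5 FPKM in control, 145 to 160 after glucose deprivation and 97 after glutamine deprivation, and their part in the results was not tested.

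Windows of 250 bases before to 50 bases after the transcription start were read from RefSeq (GRCh38.p14), which gave 39 windows for 32 of the 36 genes. Shown here are NDUFB4 and NDUFB3, which had large falls in glutamine deprivation, NDUFS4, the gene that went against the others in glucose deprivation, and NDUFS7, one of the least changed in glutamine deprivation. They were picked after their motif matches had been seen. Capitals mark, on either strand, the letters GCGCATGCG of the factor NRF1, AAGGTCA of the ERR receptors, AAGATGG of YY1 and GGGCGG of SP factors.
NDUFB4, chr3:120596086-120596385, + strand: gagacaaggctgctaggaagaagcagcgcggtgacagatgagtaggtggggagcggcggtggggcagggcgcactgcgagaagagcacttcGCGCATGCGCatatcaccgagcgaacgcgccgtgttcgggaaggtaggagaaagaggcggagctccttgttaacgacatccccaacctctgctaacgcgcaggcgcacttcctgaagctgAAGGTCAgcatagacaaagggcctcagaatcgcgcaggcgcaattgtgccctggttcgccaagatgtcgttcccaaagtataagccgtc
NDUFB3, chr2:201071751-201072050, + strand: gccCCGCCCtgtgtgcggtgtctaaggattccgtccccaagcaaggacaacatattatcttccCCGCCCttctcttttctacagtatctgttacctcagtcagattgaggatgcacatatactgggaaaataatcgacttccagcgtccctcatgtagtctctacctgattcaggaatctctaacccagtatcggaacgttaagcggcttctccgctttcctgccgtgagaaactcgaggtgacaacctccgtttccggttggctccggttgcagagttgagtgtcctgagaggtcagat
NDUFS4, chr5:53560389-53560688, + strand: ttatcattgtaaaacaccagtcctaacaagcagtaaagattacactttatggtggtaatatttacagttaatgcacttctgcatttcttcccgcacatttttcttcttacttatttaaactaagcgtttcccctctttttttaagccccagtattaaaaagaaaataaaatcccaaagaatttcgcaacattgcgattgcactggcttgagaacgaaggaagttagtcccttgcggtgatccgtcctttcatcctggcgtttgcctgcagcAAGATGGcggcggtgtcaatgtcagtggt
NDUFS7, chr19:1383657-1383956, + strand: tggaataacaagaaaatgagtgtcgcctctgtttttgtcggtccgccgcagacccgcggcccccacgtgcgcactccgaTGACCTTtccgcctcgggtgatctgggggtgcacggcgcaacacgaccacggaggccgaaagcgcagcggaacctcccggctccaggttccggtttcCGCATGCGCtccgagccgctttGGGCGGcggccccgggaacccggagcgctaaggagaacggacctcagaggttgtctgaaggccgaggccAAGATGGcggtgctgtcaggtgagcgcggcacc

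The first run of capitals in NDUFB4 holds the NRF1 letters on both strands, in matches that overlap by all but 1 base. NRF1 letters also stand in NDUFS7, so they occur both in a gene that fell and in one with no call in glutamine deprivation. Over the members, NRF1 letters occurred in 5 of 32 genes (15.6%) against 4.38% of 9832 tested genes with a window. ERR letters occurred in 4 (12.5%) against 3.46%, and YY1 letters in 9 (28.1%) against 9.79%. SP letters were in 21 (65.6%) against 78.6%, and CCGGAAG, the letters of ETS factors including GABP, in 5 (15.6%) against 23.1%. TGATGNAAT, the letters of the stress factor ATF4, were in 0 of 32 and in 0.712% of tested genes. A match in such a window is a description of the letters and not evidence of binding. The 5 members with NRF1 letters (NDUFS6, NDUFS7, NDUFA5, NDUFA8 and NDUFB4) had median log2 fold changes of -0.63 in glucose and -0.74 in glutamine deprivation, and the other 27 had -0.44 and -0.60. For the 9 with YY1 letters the medians were -0.38 and -0.56, beside -0.45 and -0.60 without them.

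In control medium the 36 transcripts spanned a mean of 6.34 to 249 FPKM. NDUFS5 (249 ± 12.4 FPKM, SD, n = 2), NDUFA1 (182 ± 13.2), NDUFB7 (124 ± 5.63) and NDUFB10 (116 ± 3.18) were the highest, all small accessory subunits of the membrane arm. NDUFB5 (6.34 ± 0.178), NDUFS7 (6.37 ± 0.237), NDUFV3 (6.85 ± 0.190) and NDUFA5 (8.45 ± 0.350) were the lowest. The neighbours NDUFB5 and NDUFS7 overlapped in their control libraries, while both libraries of NDUFS5 lay above those of NDUFA1, and both of NDUFB7 above those of NDUFB10. The sum over the 36 genes was 1696 and 1620 FPKM in control, 1087 and 1174 after glucose deprivation and 1037 after glutamine deprivation. The deprived sums were 68.2% and 62.5% of the control mean. In bulk RNA, fewer cells that express a gene and less of its RNA per cell cannot be told apart.

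**Figure D1:**
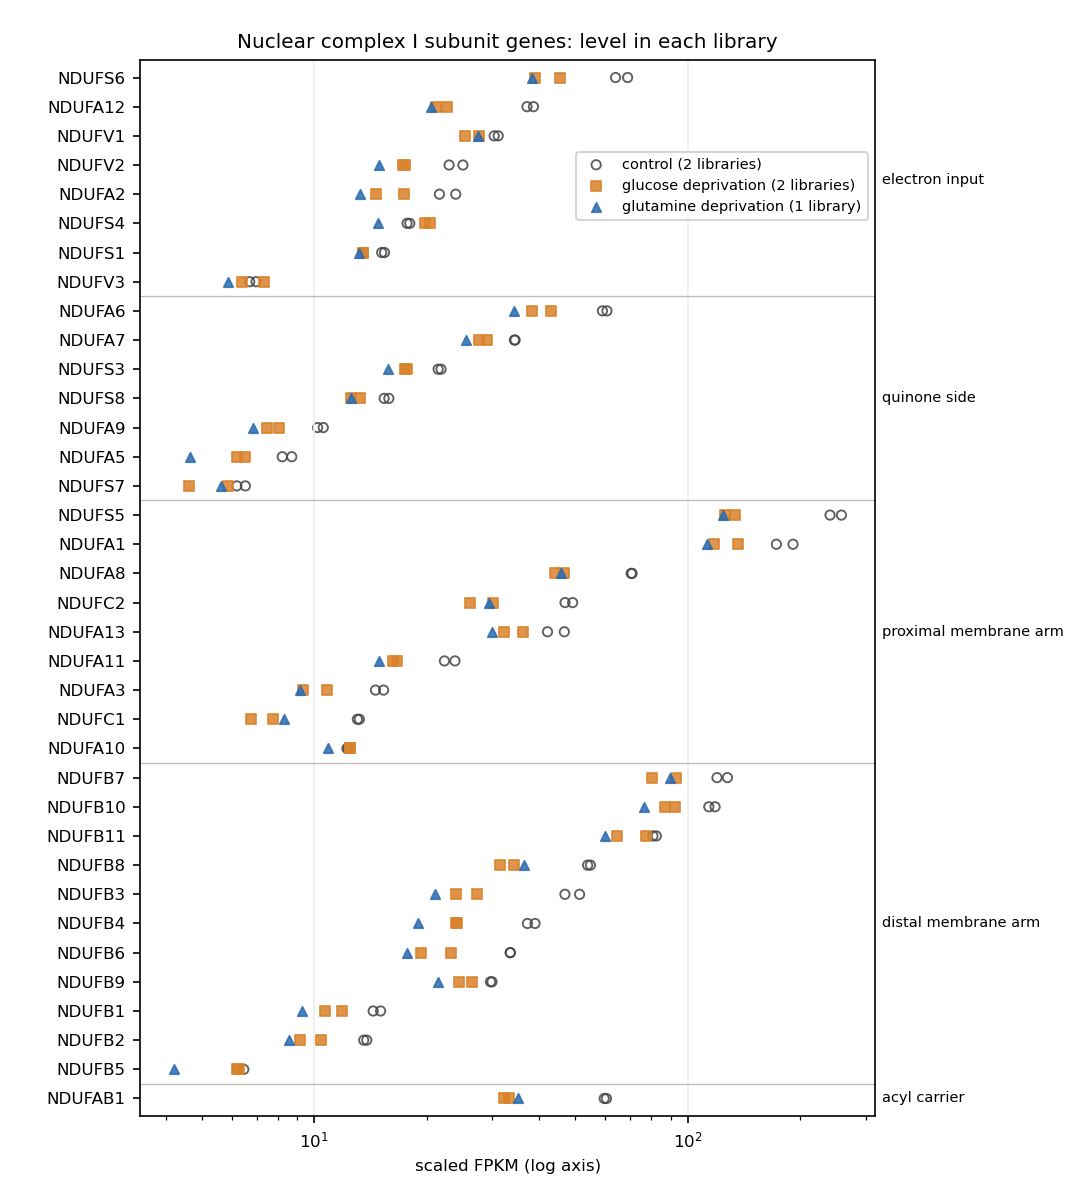
Scaled FPKM (log axis) of each of the 36 genes in each of the 5 libraries, grouped by the place of the subunit in the complex; open circles are control libraries, squares glucose deprivation and the triangle glutamine deprivation. The triangle lies left of both circles for 36 of 36 genes, and the squares lie left of both circles for 32.

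In glucose deprivation 32 of the 36 genes fell, 1 rose (NDUFS4) and 3 did not pass the test (NDUFV3, NDUFA10 and NDUFB5), at an adjusted p under 0.05. Of all 16600 genes tested, 28.2% fell and 26.6% rose. The members' median log2 fold change was -0.44, with a range of -0.94 to 0.16, while the median of all genes was 0.03. Transcripts with a mean of at least 10 FPKM, 4472 in all, are the more like comparison, since most members are abundant, and of these 52.5% fell, with a median of -0.16. For 32 members both deprived libraries lay below both controls, which held for 38.0% of all genes.

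In glutamine deprivation 33 fell and 3 did not pass the test (NDUFV1, NDUFV3 and NDUFS7), against 26.4% of all genes that fell and 24.8% that rose. Their median was -0.60, with a range of -1.19 to -0.15, and that of all genes was 0.05. Among the transcripts of at least 10 FPKM 64.7% fell, with a median of -0.31. The glutamine-deprived library was below both controls for 36 of 36 members, and for 41.6% of all genes. Both comparisons use the same 2 control libraries. How many members fell depends on the scaling of the libraries. Scaling to the sum over all genes moves the median of all genes to 0.11 in glucose and 0.30 in glutamine deprivation. With it 16 and 10 members fell, beside 10.4% and 3.25% of all genes, and the members' medians were -0.34 and -0.30. Upper-quartile scaling moves the median of all genes to -0.04 and -0.09. With it 32 and 36 members fell, beside 33.8% and 36.1% of all genes. Under the 3 other scalings tried (sum, upper quartile and none), the members' median minus that of all genes was -0.48 to -0.45 in glucose deprivation and -0.67 to -0.60 in glutamine deprivation, on the log2 scale. The share of calls over all genes that were higher was 48.5% and 48.4%, but 68.0% and 91.1% with the sum, 54.2% and 67.4% without scaling, and 38.9% and 31.3% with the upper quartile.

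**Figure D2:**
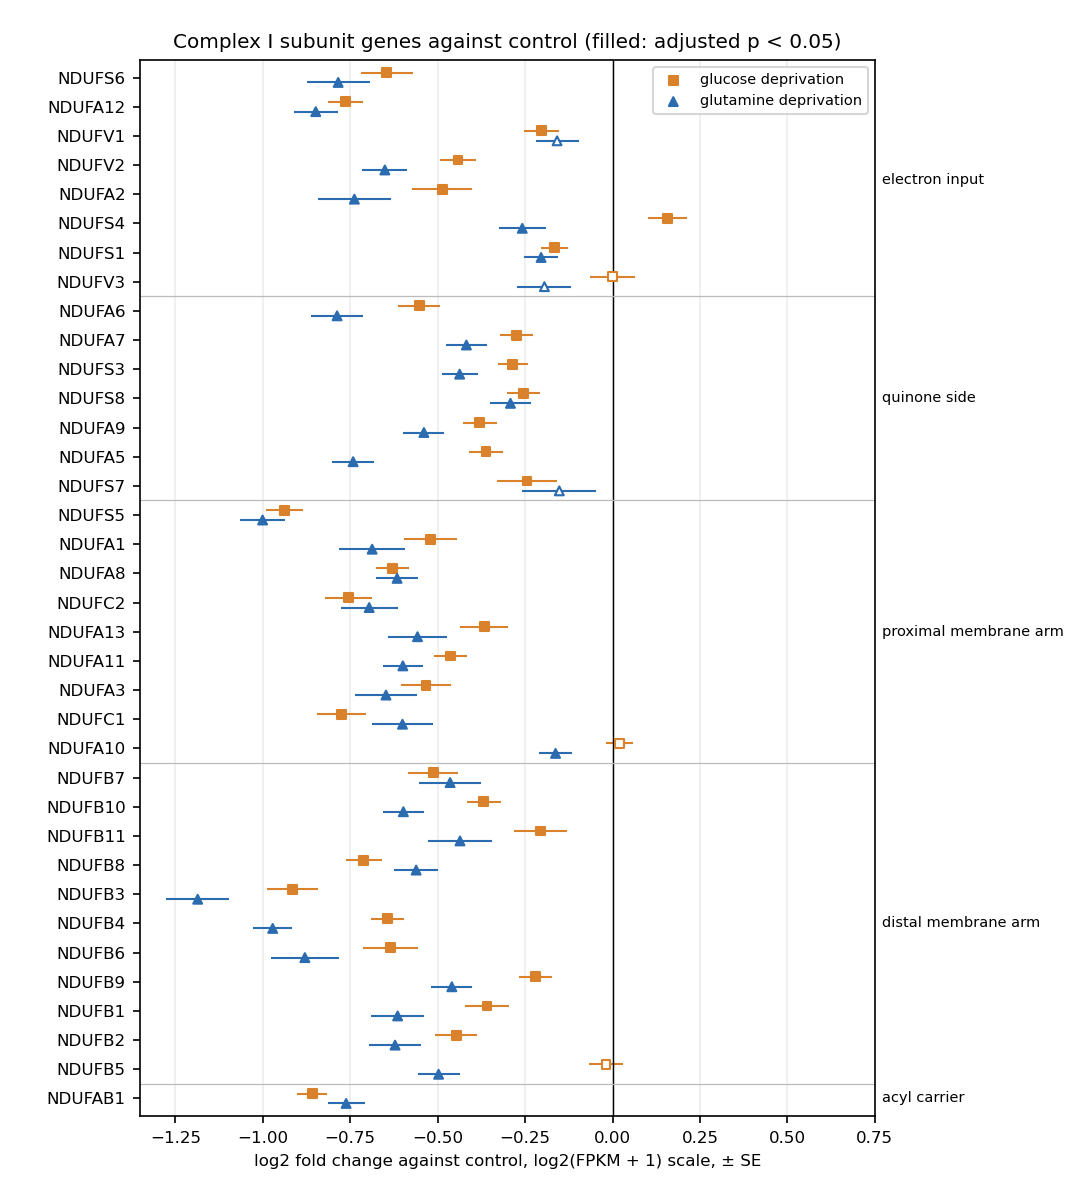
Log2 fold change (log2 of FPKM + 1) of each gene against control, with its SE, for glucose deprivation (squares, 2 against 2 libraries) and glutamine deprivation (triangles, 1 against 2); filled symbols passed an adjusted p of 0.05. Nearly all symbols lie left of 0, and NDUFS4 in glucose deprivation is the filled symbol to the right of it.

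At the electron input end, 6 of 8 genes (75%) fell in each deprivation, with medians of -0.32 in glucose and -0.45 in glutamine deprivation. The shares that fell were 28.2% and 26.4% of all genes, and 52.5% and 64.7% of transcripts of at least 10 FPKM. NDUFV1, the core subunit that binds NADH and the flavin, was at 31.1 and 30.3 FPKM in control, 25.4 and 27.7 in glucose deprivation and 27.4 in glutamine deprivation. All deprived libraries lay below both controls, and the log2 fold change in glucose deprivation was -0.20 ± 0.05 (SE, adjusted p = 0.00928), a call that is lost without either control library. In glutamine deprivation its change of -0.16 ± 0.06 did not pass (adjusted p = 0.0613). NDUFV2, the core subunit with an iron-sulfur cluster beside the flavin, read 25 and 23.0 FPKM in control, 17.3 and 17.5 in glucose deprivation and 14.9 in glutamine deprivation. The 3 groups stood apart, with log2 fold changes of -0.44 ± 0.05 (adjusted p = 0.000253) and -0.65 ± 0.06 (adjusted p = 0.000124). NDUFS1, the largest subunit of the matrix arm and carrier of several clusters, changed less: 15.4 and 15.1 FPKM in control, 13.5 and 13.5 in glucose deprivation and 13.1 in glutamine deprivation. Its falls of -0.17 ± 0.04 (adjusted p = 0.00774) and -0.20 ± 0.05 (adjusted p = 0.00823) are both lost without either control library, and in glutamine deprivation its value turns to 0.09 with scaling to the sum.

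NDUFS4, an accessory subunit that joins late as the input end is attached, went against the other genes. It was at 18 and 17.7 FPKM in control, 19.7 and 20.4 in glucose deprivation and 14.8 in glutamine deprivation. Both glucose-deprived libraries were therefore above, and the glutamine-deprived library below, both controls. The rise of 0.16 ± 0.06 had an adjusted p of 0.0410, which did not hold in 9 of 13 other settings, with adjusted p from 0.0174 to 0.253 over all settings. The fall in glutamine deprivation was -0.26 ± 0.07 (adjusted p = 0.0135), a call lost without either control library, and the value is 0.04 with scaling to the sum. NDUFV3, an accessory subunit made in a short and a long form, was at 6.98 and 6.71 FPKM in control, 6.40 and 7.31 in glucose deprivation and 5.85 in glutamine deprivation. Its control libraries lay between the glucose-deprived ones, with a mean at 100.2% of control (adjusted p = 1.00), and its change of -0.19 ± 0.08 in glutamine deprivation did not pass (adjusted p = 0.0669).

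Among the other accessory genes of this end, NDUFA12, which is added late in assembly and is a relative of the assembly factor NDUFAF2, was at 37.1 and 38.6 FPKM in control, 22.6 and 21.2 in glucose deprivation and 20.6 in glutamine deprivation. It had the largest falls of the group, -0.76 ± 0.05 (adjusted p = 1.73e-05) and -0.85 ± 0.06 (adjusted p = 4.06e-05). NDUFS6, a zinc-binding subunit, was at 63.5% and 57.4% of its control mean in the 2 deprivations. NDUFA2, a subunit with a thioredoxin-like fold, was at 70.3% and 58.1%. All 4 of these calls passed.

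On the quinone side, 7 of 7 genes fell in glucose deprivation (median -0.29) and 6 of 7 in glutamine deprivation (median -0.44). Beside these stood 28.2% and 26.4% of all genes, and 52.5% and 64.7% of transcripts of at least 10 FPKM. NDUFS7, which holds the last iron-sulfur cluster of the chain, was at 6.53 and 6.20 FPKM in control, 4.63 and 5.87 in glucose deprivation and 5.63 in glutamine deprivation. Its fall in glucose deprivation, -0.24 ± 0.09 (adjusted p = 0.0428), rests on the first of the glucose-deprived libraries and is lost without it, and also without either control. In glutamine deprivation the change of -0.15 ± 0.11 did not pass (adjusted p = 0.263), and with scaling to the sum it lies above 0, as do those of NDUFV1 and NDUFV3. NDUFS8, a ferredoxin-like core subunit, was at 15.8 and 15.4 FPKM in control, 12.5 and 13.3 in glucose deprivation and 12.6 in glutamine deprivation, below control in all 3 deprived libraries. Its falls were -0.26 ± 0.05 (adjusted p = 0.00235) and -0.29 ± 0.06 (adjusted p = 0.00372), and the second is 0.01 with scaling to the sum.

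NDUFS3, a core subunit of the same stretch without a cluster of its own, was at 21.5 and 21.8 FPKM in control, 17.7 and 17.5 in glucose deprivation and 15.7 in glutamine deprivation. The groups stood apart, with log2 fold changes of -0.29 ± 0.04 (adjusted p = 0.000744) and -0.44 ± 0.05 (adjusted p = 0.000273). NDUFA5, an accessory subunit of the matrix arm, was at 8.20 and 8.70 FPKM in control, 6.52 and 6.19 in glucose deprivation and 4.65 in glutamine deprivation. It changed by -0.36 ± 0.05 (adjusted p = 0.000460) and, in glutamine deprivation, by -0.74 ± 0.06 (adjusted p = 5.52e-05). NDUFA6, a protein of the LYR family that binds the acyl carrier subunit, was at 67.7% and 57.2% of control, NDUFA9, which has a bound NADPH, at 74.7% and 65.8%, and NDUFA7 at 82.2% and 74.1%.

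In the proximal membrane arm, the part of the membrane arm nearest the quinone site, 8 of 9 genes fell in glucose deprivation (median -0.53) and 9 of 9 in glutamine deprivation (median -0.62). Over all genes 28.2% and 26.4% fell, and over transcripts of at least 10 FPKM 52.5% and 64.7%. NDUFS5 (chr1:39026318-39034636, + strand), a subunit on the intermembrane side and the most abundant member, was at 258 and 241 FPKM in control, 126 and 134 in glucose deprivation and 124 in glutamine deprivation. The deprived levels were 52.0% and 49.7% of the control mean. The falls were -0.94 ± 0.05 (adjusted p = 8.83e-06), the largest of any member in glucose deprivation, and -1.0 ± 0.06 (adjusted p = 2.82e-05), and both calls held in every setting tried. NDUFC1, a small subunit whose own role is little known, was at 13 and 13.2 FPKM in control, 6.77 and 7.76 in glucose deprivation and 8.31 in glutamine deprivation. Unlike most members it had its lowest levels in glucose deprivation, where it changed by -0.78 ± 0.07 (adjusted p = 6.82e-05), and -0.60 ± 0.09 in glutamine deprivation (adjusted p = 0.000757).

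NDUFA10, a subunit with the fold of a nucleoside kinase, was at 12.2 and 12.3 FPKM in control, 12.5 and 12.4 in glucose deprivation and 10.9 in glutamine deprivation. Its level in glucose deprivation differed by 0.02 ± 0.04 (adjusted p = 0.700) though both libraries lay just above the controls. The fall of -0.16 ± 0.05 in glutamine deprivation (adjusted p = 0.0231) is lost without either control library, and the value is 0.13 with scaling to the sum. The other 6 genes of the group fell in both comparisons. In glucose deprivation they were at 58.5% (NDUFC2), 64.2% (NDUFA8), 67.2% (NDUFA3), 69.7% (NDUFA1), 71.3% (NDUFA11) and 77.1% (NDUFA13, also known as GRIM-19) of control. In glutamine deprivation they ranged from 60.9% (NDUFC2) to 67.1% (NDUFA13). The call of NDUFA13 in glucose deprivation is lost without the first control library.

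In the distal membrane arm, 10 of 11 genes fell in glucose deprivation (median -0.45) and 11 of 11 in glutamine deprivation (median -0.60). By comparison, 28.2% and 26.4% of all genes fell, and 52.5% and 64.7% of transcripts of at least 10 FPKM. NDUFB3 (chr2:201071433-201085750, + strand), a small membrane-spanning subunit, was at 51.3 and 46.9 FPKM in control, 27.3 and 23.9 in glucose deprivation and 21.0 in glutamine deprivation. It had the largest fall of any member in glutamine deprivation, -1.19 ± 0.09 (adjusted p = 4.34e-05), and changed by -0.91 ± 0.07 in glucose deprivation (adjusted p = 3.62e-05). NDUFB4, another membrane-spanning subunit, was at 39.0 and 37.2 FPKM in control, 24.1 and 24.0 in glucose deprivation and 18.9 in glutamine deprivation. Its 3 groups stood apart, with log2 fold changes of -0.64 ± 0.05 (adjusted p = 2.33e-05) and -0.97 ± 0.06 (adjusted p = 2.34e-05).

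NDUFB6, likewise a membrane subunit, was at 33.5 and 33.5 FPKM in control, 19.3 and 23.2 in glucose deprivation and 17.7 in glutamine deprivation, with log2 fold changes of -0.64 ± 0.08 (adjusted p = 0.000307) and -0.88 ± 0.10 (adjusted p = 0.000195). NDUFB5, a membrane-spanning subunit and the least abundant member, behaved differently in the 2 media: 6.47 and 6.22 FPKM in control, 6.20 and 6.29 in glucose deprivation and 4.20 in glutamine deprivation. Its glucose-deprived libraries overlapped the controls, with a difference of -0.02 ± 0.05 (adjusted p = 0.771), and in glutamine deprivation it changed by -0.50 ± 0.06 (adjusted p = 0.000308). NDUFB8, a membrane-spanning subunit often used as a marker of assembled complex I, was at 54.9 and 54.0 FPKM in control, 31.5 and 34.3 in glucose deprivation and 36.6 in glutamine deprivation, so all deprived libraries lay below control. Its falls were -0.71 ± 0.05 (adjusted p = 2.26e-05) and -0.56 ± 0.06 (adjusted p = 0.000206).

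The remaining 6 distal genes fell in both comparisons. NDUFB7 and NDUFB10, on the intermembrane side, were at 70.0% and 77.3% of control in glucose deprivation and 72.2% and 65.8% in glutamine deprivation. NDUFB9, the other LYR protein of the complex, was at 85.4% and 71.8%, NDUFB1 at 76.5% and 62.9%, and NDUFB2 at 71.5% and 62.4%. NDUFB11, encoded on the X chromosome, was at 86.9% and 73.6%, and its fall in glucose deprivation (adjusted p = 0.0486) is lost without the first glucose-deprived library and without either control. The calls of NDUFB11 in glutamine deprivation and of NDUFB9 in glucose deprivation are also lost without either control. That of NDUFB7 in glutamine deprivation is lost without the first control. NDUFAB1, the mitochondrial acyl carrier protein, sits in both arms and also serves mitochondrial fatty acid synthesis. It was at 59.8 and 60.6 FPKM in control, 32.2 and 33.3 in glucose deprivation and 35.1 in glutamine deprivation, with log2 fold changes of -0.86 ± 0.04 (adjusted p = 6.42e-06) and -0.76 ± 0.05 (adjusted p = 3.55e-05) that held in every setting tried.

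The 2 deprivations were also compared directly. In glutamine deprivation 12 members were lower than in glucose deprivation and 0 higher, against 22.1% and 22.6% of all genes, and 24 did not pass. The members' median was -0.16 and that of all genes 0.01, but among transcripts of at least 10 FPKM the median was -0.13 and 43.9% were lower, beside 33.3% of the members. The glutamine-deprived library was below both glucose-deprived ones for 27 members, which held for 41.9% of all genes, above both for 3 (NDUFC1, NDUFB8 and NDUFAB1) and between them for 6. NDUFB5 and NDUFS4, neither of which fell in glucose deprivation, had the largest differences, -0.48 ± 0.06 (adjusted p = 0.000574) and -0.42 ± 0.07 (adjusted p = 0.00182). NDUFA5 differed by -0.38 ± 0.06 (adjusted p = 0.00157) and NDUFB4 by -0.33 ± 0.06 (adjusted p = 0.00238).

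The other 8 lower calls were NDUFB3, NDUFB1, NDUFB9, NDUFA6, NDUFB10, NDUFV2, NDUFA10 and NDUFS3, from -0.27 to -0.15, so that 6 of the 12 belonged to the distal membrane arm, 3 to the quinone side, 2 to the electron input and 1 to the proximal arm. NDUFC1 at 0.17 ± 0.09 (adjusted p = 0.139), NDUFB8 at 0.15 ± 0.06 (adjusted p = 0.0858), NDUFAB1 at 0.10 ± 0.05 (adjusted p = 0.175) and NDUFS7 at 0.09 ± 0.11 (adjusted p = 0.516) were the highest. The direct difference turns on the scaling. With the sum over all genes no member was called, beside 3.61% of all genes lower and 21.6% higher. The members' median was then 0.03, while the median of all genes moved to 0.19. With the values as deposited 4 members were lower and 3 higher, beside 14.2% and 30.3% of all genes. With the upper quartile 21 were lower, beside 28.2% of all genes. Of all calls 50.5% were higher, and 85.7%, 68.1% and 38.4% under those 3 scalings. Leaving out the first or the second control library left the same 4 of the 12 lower calls, NDUFS4, NDUFA5, NDUFB4 and NDUFB5.

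**Figure D3:**
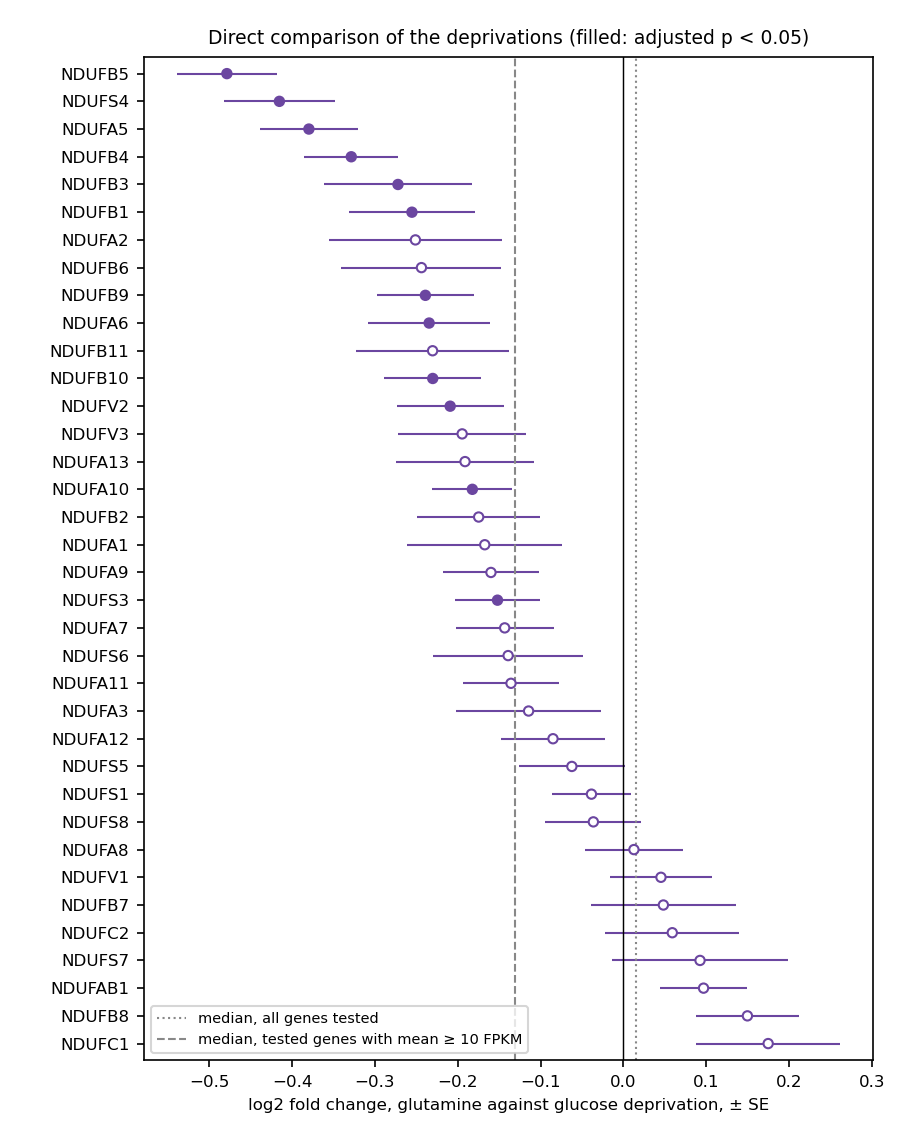
Log2 fold change of each gene in glutamine against glucose deprivation (1 against 2 libraries) with its SE, in order of size; filled circles passed an adjusted p of 0.05. The dotted line is the median of all genes tested (0.01) and the dashed line that of abundant genes, of 10 FPKM or more on average (-0.13); 12 genes are filled, all left of 0.

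The 7 subunits encoded by mitochondrial DNA, which include the proton pumps, were given by the deposited tables as well. Their summed level was 309 and 271 FPKM in control, 268 and 222 in glucose deprivation and 803 in glutamine deprivation, or 84.5% and 277% of control. Their sum over that of the 36 nuclear genes was 0.182 and 0.167 in control, 0.246 and 0.189 in glucose deprivation and 0.774 in glutamine deprivation. The ratio of mitochondrial to nuclear transcripts of the same enzyme was therefore higher in the 1 glutamine-deprived library than in the other 4. The glucose-deprived ratios were both above control, with a mean at 125% of it. With 1 library, this has no replicate of its own.

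Of the mitochondrial genes, 5 of 7 rose in glutamine deprivation and kept that call in every setting tried. Of all genes 24.8% rose, and of transcripts of at least 10 FPKM 10.8%. MT-ND5 was at 24.1 and 26.7 FPKM in control, 33.2 and 24.2 in glucose deprivation and 150 in glutamine deprivation, a rise of 2.52 ± 0.15 (adjusted p = 2.50e-05). MT-ND4 rose by 2.39 ± 0.11 (adjusted p = 1.89e-05) and MT-ND4L by 2.21 ± 0.10 (adjusted p = 1.89e-05). MT-ND3, on the same strand as the 5 that rose, did not pass. Its level was 111 and 76.0 FPKM in control and 77.8 in glutamine deprivation, a change of -0.24 ± 0.18. MT-ND6, the only one of the 7 on the other strand of the mitochondrial DNA, fell. It was at 50.6 and 49.2 FPKM in control, 27.8 and 21.8 in glucose deprivation and 27.4 in glutamine deprivation, log2 fold changes of -0.99 ± 0.10 (adjusted p = 0.000123) and -0.84 ± 0.13 (adjusted p = 0.000892). In glucose deprivation 3 of the 7 fell (MT-ND6, MT-ND3 and MT-ND2) and 1 rose (MT-ND4). These shares, 42.9% and 14.3%, stood beside 28.2% and 26.6% of all genes. Of transcripts of at least 10 FPKM, 52.5% fell and 21.5% rose. Strand setting is not given in the sources used here, so reads of MT-ND6 and of the genes opposite it may not be separated.

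**Figure D4:**
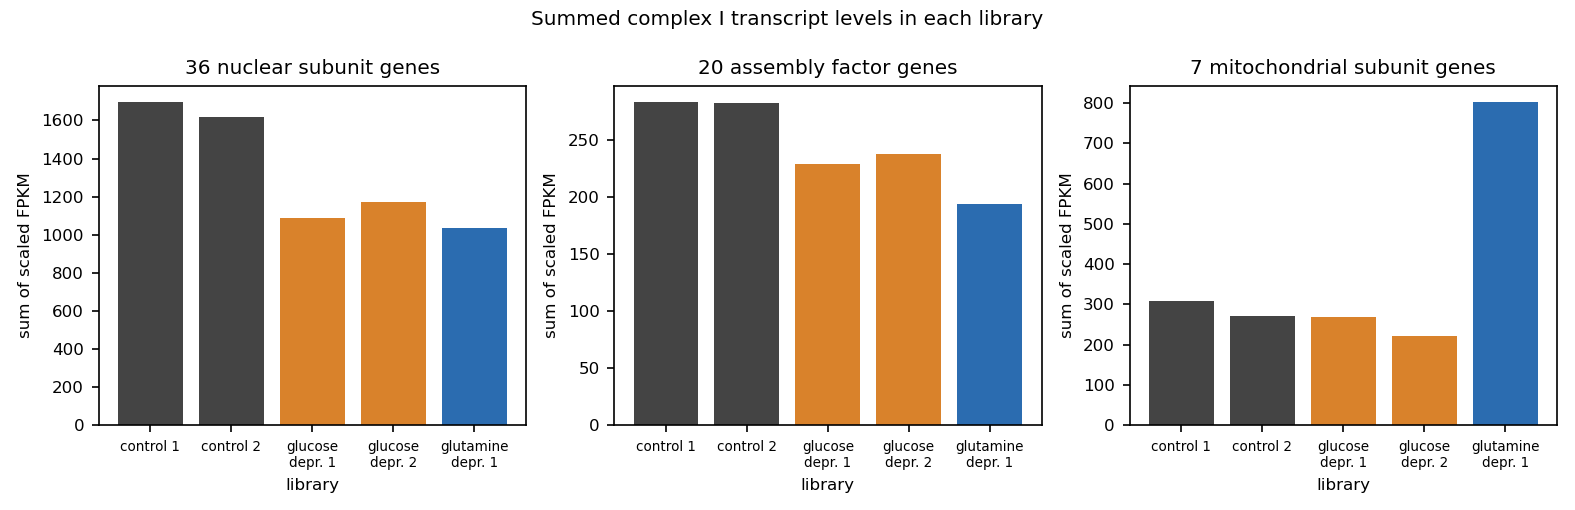
Sum of scaled FPKM in each library over the 36 nuclear subunit genes, the 20 assembly factor genes and the 7 mitochondrially encoded subunit genes; each bar is 1 library. The nuclear sums are 1696 and 1620 in control and 1037 to 1174 in the deprived libraries, while the mitochondrial sum of the glutamine-deprived library is 803.

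Assembly factors build the complex and are not part of it. Of 20, 11 fell and 3 rose in glucose deprivation (median -0.17), and 14 fell and 1 rose in glutamine deprivation (median -0.48). The shares that fell, 55.0% and 70.0%, stood beside 52.5% and 64.7% of transcripts of at least 10 FPKM, and 28.2% and 26.4% of all genes. The direct comparison had 9 lower and 2 higher (45.0% and 10.0%). Of all genes 22.1% were lower and 22.6% higher, and of transcripts of at least 10 FPKM 43.9% and 18.3%. With scaling to the sum, 7 fell in glucose deprivation (median -0.07) and 6 in glutamine deprivation (median -0.17), and 1 was lower and 2 higher between them. Under that scaling 10.4% and 3.25% of all genes fell, and 3.61% were lower and 21.6% higher between the deprivations. Their sum was 283 and 282 FPKM in control, 229 and 238 in glucose deprivation and 194 in glutamine deprivation. NDUFAF8, a partner of NDUFAF5, was at 29.9 and 30.8 FPKM in control, 12.8 and 11.5 in glucose deprivation and 14.6 in glutamine deprivation, log2 fold changes of -1.25 ± 0.06 (adjusted p = 6.17e-06) and -1.01 ± 0.08 (adjusted p = 4.45e-05). TMEM70 changed by -0.80 ± 0.06 in glucose deprivation (adjusted p = 3.30e-05) and TMEM186 by -0.76 ± 0.10 (adjusted p = 0.000402). TMEM126B, needed to build the membrane arm, read 18.7 and 18.2 FPKM in control, 16.7 and 16.5 in glucose deprivation and 9.28 in glutamine deprivation, and differed by -0.77 ± 0.06 between the deprivations (adjusted p = 7.57e-05). NDUFAF6, ACAD9 and ECSIT rose in glucose deprivation.

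Of the other routes of electrons to ubiquinone (succinate dehydrogenase and other quinone reductases), 7 were tested. In glucose deprivation 5 fell (71.4%) and 0 rose, and in glutamine deprivation 4 fell (57.1%) and 0 rose. Of all genes 28.2% and 26.4% fell, and of transcripts of at least 10 FPKM 52.5% and 64.7%. SDHD, a membrane anchor of complex II, was at 38.6 and 38.6 FPKM in control, 21.8 and 23.8 in glucose deprivation and 23.6 in glutamine deprivation, and SDHB changed by -0.54 ± 0.05 (adjusted p = 4.75e-05) and -0.60 ± 0.06 (adjusted p = 9.71e-05). Of the 10 genes of ubiquinone synthesis, 2 fell and 3 rose in glucose deprivation, and 5 fell in glutamine deprivation. The shares in glucose deprivation, 20% and 30%, were near those of all genes, 28.2% and 26.6%. In glutamine deprivation 50% fell, beside 26.4% of all genes and 64.7% of transcripts of at least 10 FPKM. Of 15 genes of iron-sulfur cluster assembly, 7 fell and 2 rose (46.7% and 13.3%), and 11 fell and 1 rose (73.3% and 6.67%). For comparison, 28.2% and 26.4% of all genes fell, and 52.5% and 64.7% of transcripts of at least 10 FPKM. Of the cluster assembly genes, BOLA3, which passes on clusters, changed by -0.74 ± 0.06 (adjusted p = 4.52e-05) and -0.96 ± 0.08 (adjusted p = 5.20e-05). With scaling to the sum, 2 quinone-reducing genes, 2 of ubiquinone synthesis and 4 of cluster assembly fell in glucose deprivation, and 0, 0 and 2 in glutamine deprivation. Under that scaling 10.4% and 3.25% of all genes fell. The glutamine-deprivation medians of the quinone-reducing and ubiquinone lists then turn from -0.16 to 0.11 and from -0.17 to 0.10.

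Of 12 regulators of respiratory genes, 11 were tested. In glucose deprivation 6 fell and 2 rose (54.5% and 18.2%), and in glutamine deprivation 4 fell and 1 rose (36.4% and 9.09%). Of all genes 28.2% and 26.4% fell, and of transcripts of at least 10 FPKM 52.5% and 64.7%. With scaling to the sum, 1 fell in glucose deprivation, and 1 fell and 1 rose in glutamine deprivation, where the median turns from -0.08 to 0.20. Under that scaling 10.4% and 3.25% of all genes fell, and 33.4% rose in glutamine deprivation. GABPA, the DNA-binding subunit of GABP, was at 17.3 and 17.4 FPKM in control, 12.7 and 13.1 in glucose deprivation and 11.1 in glutamine deprivation, log2 fold changes of -0.40 ± 0.04 (adjusted p = 0.000129) and -0.60 ± 0.05 (adjusted p = 7.01e-05). TFAM, which packages mitochondrial DNA and starts its transcription, changed by -0.48 ± 0.05 (adjusted p = 8.37e-05) and -0.70 ± 0.06 (adjusted p = 5.14e-05), and TFB2M, its partner in transcription, by -0.51 ± 0.08 (adjusted p = 0.000745) and -0.76 ± 0.09 (adjusted p = 0.000312). NRF1 was at 5.42 and 5.72 FPKM in control, 5.30 and 5.59 in glucose deprivation and 5.35 in glutamine deprivation, and did not pass (adjusted p = 0.715 and 0.586). The PGC-1 coactivators differed: PPARGC1A stayed under 1 FPKM in all 5 libraries and was not tested. PPARGC1B changed by -0.16 ± 0.04 in glucose deprivation (adjusted p = 0.0136) and rose by 0.27 ± 0.05 in glutamine deprivation (adjusted p = 0.00358). PPRC1 rose by 0.24 ± 0.04 in glucose deprivation (adjusted p = 0.00132), with 0.02 ± 0.05 in glutamine deprivation (adjusted p = 0.759). ESRRA changed by -0.22 ± 0.08 in glucose deprivation (adjusted p = 0.0494), with -0.15 ± 0.10 in glutamine deprivation (adjusted p = 0.241).

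The fold changes of the members varied with their exon length. This is the merged length of all exons annotated for a gene, and can exceed that of any single transcript. Across the 36 genes, Spearman's rank correlation between exon length and log2 fold change was 0.53 in glucose deprivation, 0.48 in glutamine deprivation and 0.03 between the deprivations, where over 16291 genes it was -0.06, -0.02 and 0.03. With a gene's mean level over the libraries, the rank correlation was -0.47, -0.36 and 0.17 across the members, in the same order. Over the 16291 genes it was -0.29, -0.54 and -0.30. The points share the same libraries. The 18 shorter genes, of 531 to 1999 bases, had medians of -0.63 and -0.71 in glucose and glutamine deprivation, and the 18 longer, of 2263 to 12268 bases, -0.32 and -0.52. In glucose deprivation 17 of the shorter fell and 1 rose, and 15 of the longer fell. Beside these counts, 28.2% of all genes fell and 26.6% rose. The shares of transcripts of at least 10 FPKM were 52.5% and 21.5%. NDUFS4, at 1176 bases, is a short gene off this pattern, and NDUFA5, at 9851 bases, a long one with a fall of -0.74 in glutamine deprivation. The parts of length and level in the members' falls were not tested.

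**Figure D5:**
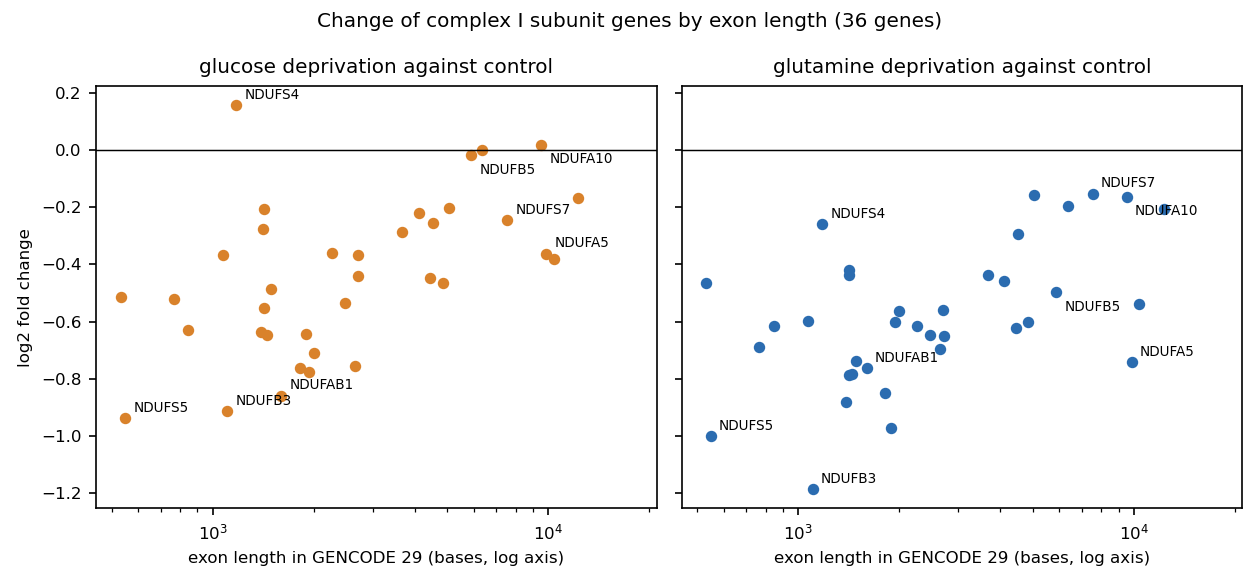
Log2 fold change against control of each of the 36 genes against its exon length in GENCODE 29 (log axis), for glucose deprivation (left) and glutamine deprivation (right); each point is 1 gene. Shorter genes lie lower, with rank correlations of 0.53 and 0.48, and NDUFS4 lies above the other short genes in glucose deprivation.

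The genes lie on 18 chromosomes, 6 of them on chromosome 19. Exons of 17 members overlap a gene on the other strand, of which 4 by more than 25% of their exon length: NDUFA1 with RNF113A (44.5%), NDUFB11 with RBM10 (44.9%), NDUFS7 (35.8%) and NDUFB2 (27.9%). In 13, exons overlap a gene on the same strand, and 17 have pseudogenes named after them, 54 in all, so the authors' counting may have shared their reads. Of the 14 members with no overlapping exon, 10 fell and 1 rose without glucose, 13 fell without glutamine and 7 were lower in the direct comparison. The medians of these 14 were -0.44 in glucose and -0.62 in glutamine deprivation. Of the 4 with neither an overlap nor a named pseudogene (NDUFV3, NDUFS4, NDUFA10 and NDUFB7), 1 fell and 1 rose in glucose deprivation and 3 fell in glutamine deprivation. Their medians were 0.01 and -0.23, beside -0.44 and -0.60 for all 36 members. Of all genes tested 28.2% and 26.4% fell, 26.6% rose in glucose deprivation and 22.1% were lower in the direct comparison. Among transcripts of at least 10 FPKM 52.5% and 64.7% fell, and 43.9% were lower in the direct comparison.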

How the data were processed

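Libraries were made from total RNA of 95D cells depleted of ribosomal RNA and sequenced as read pairs of 150 bases, per the labels' protocols. HISAT2 2.0.5, StringTie and hg38 are named in the submitters' processing notes, and strand setting, StringTie version and annotation are not given in the sources used here. Values the authors deposited were taken to be FPKM. No header names this unit, which was inferred from fractional values, sums of 493129 to 571208 per library and whole-read steps of low values: of 3991 to 4396 single-exon genes per library with 1 to 20 reads, 95.1% to 95.8% came out whole within 0.05 reads. A combined table held identical values in the 5 columns used and was not used. Left out was 1 column of the deposited glutamine table, headed as a glucose-deprived replicate, which could not be tied to a sample, so that 5 of 6 labelled libraries entered.

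FPKM were divided by factors of 0.960 and 0.971 (control), 1.01 and 0.979 (glucose deprivation) and 1.08 (glutamine deprivation), a TMM-like mean of log ratios trimmed by 30% of ratios and 5% of abundances over genes that average 1 FPKM or more. Log2(FPKM + 1) was fitted with limma 3.58.1 (R 4.3.3) for 16600 genes that reach 1 FPKM in 1 library or more, all 3 groups in 1 fit with a variance trend over inferred reads. This left 2 residual degrees of freedom, and the spread of the lone glutamine-deprived library is taken from the other groups. Adjusted p-values are Benjamini-Hochberg values over all 16600 genes, from two-sided tests, with 0.05 as threshold. Fold changes on the log2(FPKM + 1) scale understate those of low genes. The script was tested on simulated data.

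The members, lists and tests were chosen with earlier results of these data known. Values in every library were given for the 4 members with the largest falls and the 4 with the largest rises or smallest falls in each comparison, for core subunits, for NDUFAB1 and for members against the common direction. From each related list at most 3 genes per comparison with the largest changes were named, and always the regulators NRF1, GABPA, ESRRA, PPARGC1A, PPARGC1B and PPRC1. Values beyond this rule (NDUFA12, the percentages of the other members and the single genes NDUFAF6, ACAD9 and ECSIT) were added after they were seen. Exon lengths, merged over all annotated transcripts of a gene, and overlaps are from GENCODE 29. Alternatives were another pseudocount, filter, scaling, variance trend, robust moderation, a replicate block and leaving out each library.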

Additional observations from a re-analysis of the deposited data

How the results depend on the processing

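Scaling moved the counts most. In glucose deprivation scaling to the sum over all genes gave 16 members lower, beside 10.4% of all genes. The members' median was -0.34, and 5485 genes were called in all (9107 as reported). The median was -0.40 without scaling and -0.52 with the upper quartile. In glutamine deprivation the sum gave 10 members lower, beside 3.25% of all genes, and a median of -0.30. No scaling gave a median of -0.45 and the upper quartile -0.76. With the sum NDUFA10 was at 0.13, NDUFS1 at 0.093 and NDUFS8 at 0.0050. In the direct comparison the sum gave 0 lower, a median of 0.028, NDUFS3 at 0.041 and 4266 genes called (7411 as reported). Without scaling 4 were lower and 3 higher (median -0.053), and with the upper quartile 21 were lower (median -0.24). Of all genes 14.2% and 28.2% were lower under those scalings. Without the filter 5 members were lower, beside 6.38% of all genes, and with a trend over the mean level 7, beside 18.5%. The cause of these changes was not tested. The 1 member higher in glucose deprivation, NDUFS4, went to 0 with a pseudocount of 0.1, no filter, the upper quartile, the sum and a replicate block, and to between 0 and 1 over the left-out libraries.

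Over the left-out libraries, 26 to 32 members were lower in glucose deprivation, with medians of -0.49 to -0.38 and 5704 to 9097 genes called in all. In glutamine deprivation 28 to 35 were lower, with 5543 to 8449 genes called. In the direct comparison 4 to 15 were lower and 0 to 3 higher, with medians of -0.20 to -0.12. The lowest counts of members in all 3 came without a control library, and the 3 higher came without the second glucose-deprived library. Leaving out the glutamine-deprived library gave no value for its comparisons. Without it 32 members were lower in glucose deprivation, beside 29.8% of all genes. Leaving out any other library leaves 1 in its group, so those counts of calls carry little weight. Over the left-out libraries, the members' median minus that of all genes was -0.50 to -0.40 in glucose deprivation. It was -0.66 to -0.63 in glutamine deprivation and -0.21 to -0.12 in the direct comparison. The labels do not say whether same-numbered libraries were paired. The deviations of same-numbered control and glucose-deprived libraries had a correlation of -0.02 over 16600 genes, which cannot show whether they were. With the replicate number as a block, 32 members were lower in each deprivation and 9 between the deprivations, where NDUFA10, NDUFA6, NDUFB1 and NDUFS3 lost their call and NDUFS6 gained one. Robust moderation kept the same 33, 33 and 12 calls. Members rested on at least 490 inferred reads in a library, an approximate number that uses merged exon length and may be too high. The few libraries, 2, 2 and 1 per group, limit precision.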
